A study of Homo sapiens with 24 samples.

Results

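The 7 RNAs described here are short, abundant noncoding RNAs that fold into stable structures: RN7SL1 and RN7SL2, RN7SK, RMRP, RPPH1 and the U3 copies SNORD3A and SNORD3B-1. They were chosen by name and by hg19 position with earlier results of these peak lists known, and a peak belonged to an RNA when it overlapped the RNA's window by at least 1 nt on the same strand. Of 269336 peaks in 7 deposited lists, 227 lay on these RNAs, and each of the 7 RNAs held a peak in every list. Since the folds over input were in view when the RNAs were picked, their values are given as a description, without tests.

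The lists came from eCLIP, in which RNA crosslinked to a protein by ultraviolet light is recovered with an antibody and sequenced beside a size-matched input, in 293T cells, a human embryonic kidney line. Of the 24 samples, 2 RBFOX2, 4 SLBP and 1 IgG immunoprecipitation had a list. RBFOX2 is a splicing regulator, SLBP binds the stem-loop of histone mRNAs, and IgG is an isotype control antibody. All cells were crosslinked at 254 nm with 400 mJ/cm2, each immunoprecipitation had its own input, and RNA was digested with 40 U of RNase I except for SLBP replicates 3 and 4, which had 5 U. The RBFOX2 antibody came from Bethyl, the SLBP antibody from MBL and the IgG from Thermo Fisher. The labels do not say whether replicates were separate cultures, so the spread between libraries may be technical.

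7SL RNA is the scaffold of the signal recognition particle, which directs ribosomes making secreted and membrane proteins to the endoplasmic reticulum. 7SK RNA holds the transcription elongation factor P-TEFb in an inactive complex with HEXIM proteins. RMRP and RPPH1 are the RNA subunits of RNase MRP, which takes part in ribosomal RNA processing, and of RNase P, which removes the leader of precursor tRNAs. U3 is a box C/D small nucleolar RNA needed for early cleavages of the ribosomal RNA precursor. RNAs of this kind are common in lysates and are frequent background in crosslinking experiments.

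In hg19, RN7SL1 was taken at chr14:50053297-50053596 on the plus strand and RN7SL2 at chr14:50329271-50329567 on the minus strand. RN7SK was taken at chr6:52860418-52860749 on the plus strand, RMRP at chr9:35657748-35658015 on the minus strand and RPPH1 at chr14:20811230-20811570 on the minus strand. The U3 windows were chr17:19091329-19092027 for SNORD3A and chr17:18965225-18965982 for SNORD3B-1, both on the plus strand. The windows of the first 5 RNAs, 268 to 341 nt, differed by at most 2 nt from the RefSeq gene lengths (GRCh38.p14), whereas the U3 windows of 699 and 758 nt were longer than the 217 nt that RefSeq gives for each copy. Positions within an RNA are counted from 1 at the 5' end of its window. 7SL and U3 have near-identical copies in the genome, so reads of one copy may have been assigned to another, and values of single copies are uncertain for that reason.

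A peak's fold is the authors' log2 ratio of immunoprecipitation over the paired input, and its p-value is theirs as well. A peak was counted as above input when the log2 fold was over 0 and the −log10 p at least 5, as enriched when the log2 fold was at least 3 (8-fold) with the same p limit, and as below input when the log2 fold was under 0. The deposited p-value is 0 on the −log10 scale for every peak below input, so no significance can be given for depletion (0 of 66786 such peaks have a value over 0). Read counts behind the folds are unknown.

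U3 SNORD3B-1 was the only one of the 7 RNAs above input with each of the 3 antibodies, and it was so in 6 of 7 libraries. RN7SL2 was enriched in 2 libraries, IgG and SLBP replicate 1. RN7SK, RMRP and RPPH1 passed the above-input limits in SLBP libraries alone (in 1, 2 and 1 of 4 respectively), and RN7SL1 and SNORD3A passed them in 0 of 7 libraries. No RNA passed in all 7 libraries, because the SNORD3B-1 peak of SLBP replicate 4 had a −log10 p of 3.37. With a −log10 p of 3 as the limit, or without that library, SNORD3B-1 passed everywhere.

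Most peaks on the RNAs lay below input. Of the 227 peaks, 191 (84.1%) were below input, 26 were above it, 11 of these were enriched, and 10 had a fold over 0 without passing the p limit. Over all 269336 peaks of the 7 lists, 66786 were below input, and the share differed between lists, from 7.02% to 32.6%. The shares of a list above input ran from 0.829% to 10.1%, and those enriched from 0.180% to 7.95%. RPPH1 alone held 106 of the 227 peaks, 93 of those below input and 11 of those above it. Enriched peaks had log2 folds of 3.52 or more, and the highest peak above input that was not enriched had 1.37, and the SNORD3B-1 peak of SLBP replicate 4, at 3.58, passed the fold limit without the p limit.

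The shares of all peaks that met each limit are given beside the counts, and nothing is read from their difference, since the RNAs were chosen on the same folds. In RBFOX2 replicate 1, 1 of 33 peaks on the RNAs was above input and enriched and 31 were below input. Over all peaks of that list, 10.1% were above input, 7.95% enriched and 32.6% below. RBFOX2 replicate 2 had 1 of 19 peaks above input and enriched and 17 below, where the whole list had 9.88%, 7.66% and 31.0%. The single peak above input was the SNORD3B-1 peak in both lists.

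Among the SLBP lists, replicate 1 stood apart. It had 17 of 36 peaks above input, 3 enriched and 15 below, against 1.88%, 1.23% and 7.02% of its whole list. Replicate 2 had 2 of 33 above, 1 enriched and 29 below (1.87%, 1.27% and 9.45% of the list). Replicate 3 had 1 of 37 above and enriched and 36 below (2.06%, 1.70% and 23.4%). Replicate 4 had 0 of 30 above and 28 below; 2.82% of its list was above input, 2.33% enriched and 17.0% below. Replicate 1 therefore held 17 of the 20 SLBP peaks above input and 3 of the 5 enriched, and the other 3 lists together held 3 above input of 100. Peaks on 1 RNA are not independent, and 11 of the 17 were on RPPH1. Counted by RNA, 5, 2, 1 and 0 RNAs were above input in SLBP replicates 1 to 4. The IgG list had 4 of 39 peaks above input, all 4 enriched, and 35 below, against 0.829%, 0.180% and 10.7% of all its peaks.

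**Figure D1:**
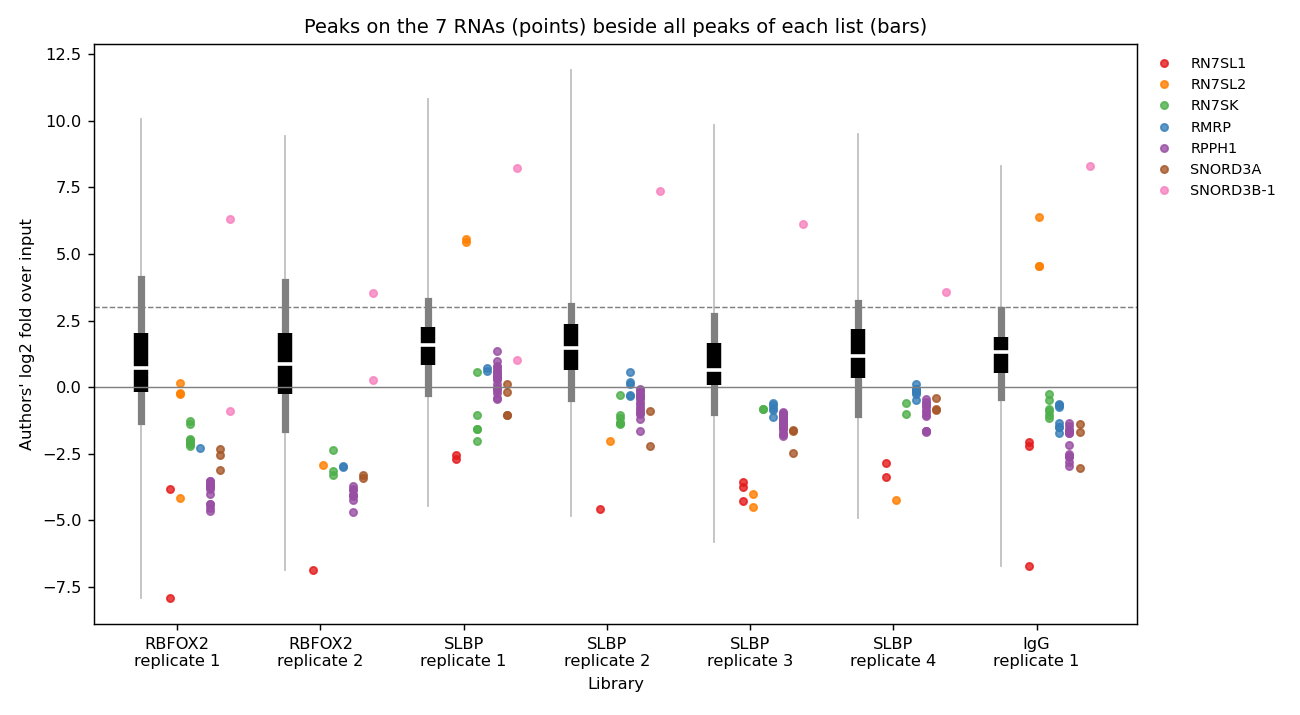
Authors' log2 fold over input (vertical axis) of each peak on the 7 RNAs (coloured points) in the 7 libraries (horizontal axis), beside all peaks of the same list: thin line, full range; grey bar, 5th to 95th percentile; black bar, quartiles; white mark, median; the dashed line is a log2 fold of 3. SNORD3B-1 lies at the top of the members in every list (3.52 to 8.29 for its highest peak), RN7SL1 reaches the lowest value of the list in both RBFOX2 libraries and in IgG (−7.91, −6.88 and −6.71), and most other points lie under 0.

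U3 carried the highest folds of the group, at a single place. On SNORD3B-1 every list had a peak that began at nt 165 to 185 and ended at nt 205 to 228. Counted from the window's start, the peaks ended at nt 205, 209 and 213 in RBFOX2 replicates 1 and 2 and SLBP replicate 2, short of the RefSeq length of 217 nt. In the other 4 lists they ended at nt 225 to 228, past it. The starts of the SNORD3A and SNORD3B-1 windows were 126104 nt apart, as were the starts of their RefSeq genes. The log2 fold of this peak was 6.31 in RBFOX2 replicate 1 and 3.52 in replicate 2. It was 8.24, 7.35, 6.12 and 3.58 in SLBP replicates 1 to 4, and 8.29 in IgG. On a linear scale these are 79.2- and 11.5-fold over input for RBFOX2, 303-, 163-, 69.5- and 12.0-fold for SLBP, and 313-fold for IgG. The input counts behind these folds are unknown, and how far a low input count sets their size was not tested.

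The control antibody thus had the highest value of the 7 libraries at this place, and the RBFOX2 and SLBP ranges overlapped. The IgG peak, at chr17:18965405-18965452 (nt 181 to 228), had the highest fold of all 28361 IgG peaks. The same peak ranked 35th of 23034 in SLBP replicate 1, 106th of 18349 in replicate 2, 105th of 16974 in replicate 3 and 290th of 10122 in replicate 4. In RBFOX2 replicate 1 it ranked 498th of 74902, and in replicate 2, 7124th of 97594, where 7.30% of the list had a higher fold. The −log10 p was 15.66 in 5 lists, a value shared by 1684 and 1887 peaks of the RBFOX2 lists and by 4 IgG peaks. It was 19.1 in RBFOX2 replicate 2 and 3.37 in SLBP replicate 4, so its size does not order the libraries.

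The SLBP values were higher with 40 U of RNase I (8.24 and 7.35) than with 5 U (6.12 and 3.58). Over all stretches with a peak in all 7 lists, the SLBP medians had the same order. They were 0.24 and 0.11 with 40 U and −0.35 and −0.02 with 5 U. The share of stretches with this order was not counted, for this RNA or for those below. The RNase I amount changes together with the replicate number, and 2 against 2 libraries cannot give an exact permutation p under 0.333. A second, weaker SNORD3B-1 peak at nt 56 to 84 was listed in 3 libraries, with log2 folds of −0.91 and 0.28 in RBFOX2 replicates 1 and 2 and 1.02 in SLBP replicate 1. None of these passed the p limit.

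SNORD3A, the other U3 copy, had its peaks elsewhere in the RNA and below input. All 7 lists had a block of touching or nearly touching peaks that began at nt 52 to 61 and ended at nt 111 to 120, and none had a SNORD3A peak past nt 120. The mean log2 fold over the covered nucleotides, each weighted equally, was −2.38 and −3.39 in RBFOX2 replicates 1 and 2. It was −0.10, −0.97, −1.66 and −0.80 in SLBP replicates 1 to 4 and −1.42 in IgG. One piece of the block in SLBP replicate 1 (nt 59 to 102) reached 0.12 with a −log10 p of 2.6, short of the limit. The stretch listed in all 7 lists thus differed between the copies, lying between nt 52 and 120 on SNORD3A and between nt 165 and 228 on SNORD3B-1. The latter was listed on SNORD3A in 0 lists, whereas the weaker SNORD3B-1 peaks at nt 56 to 84 in 3 lists lay inside the SNORD3A stretch. How far this difference follows from the assignment of reads between copies was not tested. Beyond nt 228 the remaining 530 nt of the SNORD3B-1 window, and beyond nt 120 the remaining 579 nt of the SNORD3A window, held no peak in any list.

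**Figure D2:**
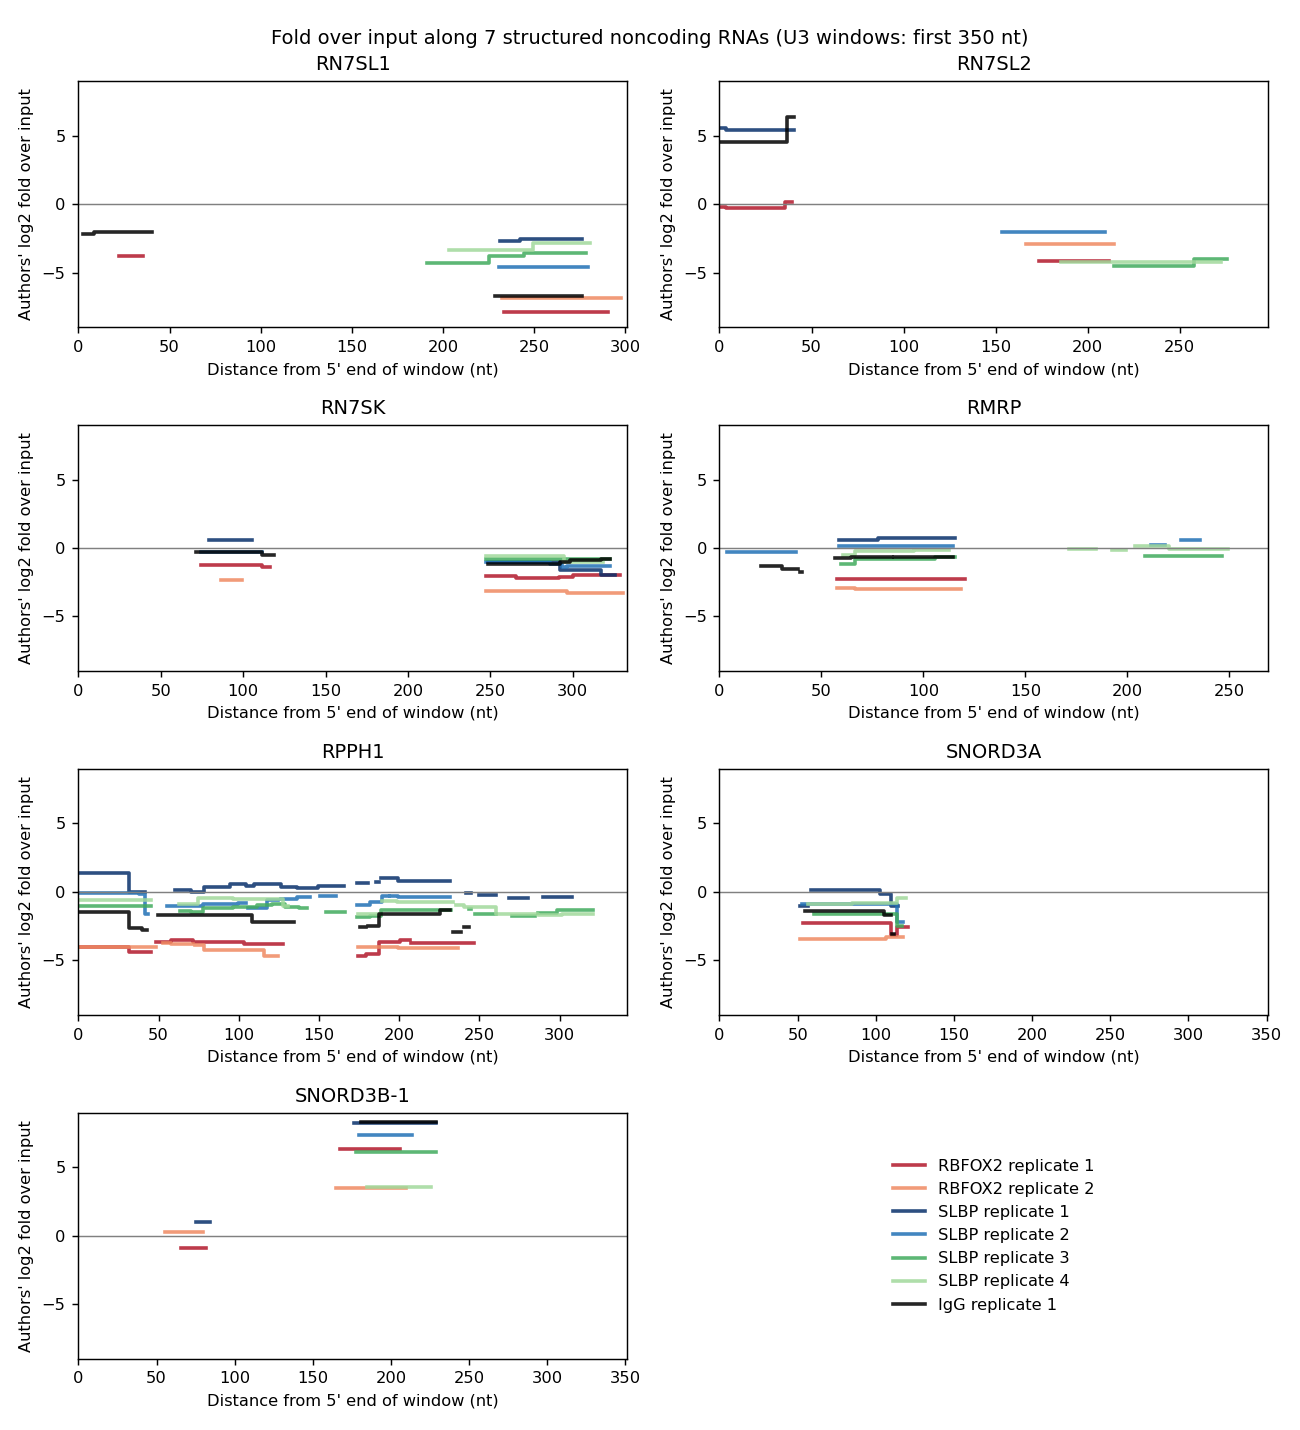
Authors' log2 fold over input (vertical axis) of the peak covering each nucleotide, against the distance from the 5' end of the window in nt (horizontal axis), for the 7 RNAs in 7 libraries; gaps are nucleotides without a peak, and the U3 windows are shown to nt 350. The SNORD3B-1 peak at nt 165 to 228 lies above 3 in all libraries, the first 40 nt of RN7SL2 lie above 4 in SLBP replicate 1 and IgG alone, and the RBFOX2 lines lie below those of the other libraries on RMRP, RPPH1 and SNORD3A wherever they share nucleotides.

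7SL RNA gave the lowest folds of the group and, at 1 end of 1 copy, some of the highest. On RN7SL1 all 14 peaks of the 7 lists were below input. Every list had a block in the 3' part that began at nt 192 to 234 and ended at nt 276 to 297. The nucleotides covered in all 7 lists were nt 234 to 276, and their log2 fold was −7.91 and −6.88 in RBFOX2 replicates 1 and 2. It was −2.57, −4.58, −3.63 and −3.04 in SLBP replicates 1 to 4 and −6.71 in IgG. By the authors' folds, input thus exceeded immunoprecipitate on this stretch 241- and 118-fold in the RBFOX2 libraries, 5.94- to 23.9-fold in the SLBP libraries and 105-fold in IgG.

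Both RBFOX2 libraries and IgG lay below all 4 SLBP libraries on this stretch, by at least 2.13 (IgG against SLBP replicate 2). The RN7SL1 peak had the lowest fold of the entire list in RBFOX2 replicate 1, in RBFOX2 replicate 2 and in IgG, and the second lowest in SLBP replicate 2.

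RN7SL2 was listed at different places in different libraries. At its 5' end, IgG had 3 touching peaks over nt 1 to 40 with log2 folds of 4.55, 4.56 and 6.40, and SLBP replicate 1 had 2 over the same 40 nt with 5.55 and 5.44. All 5 had the ceiling −log10 p of 400. The IgG piece at nt 37 to 40 ranked 2nd in its list, behind the SNORD3B-1 peak. In RBFOX2 replicate 1 the same place had log2 folds of −0.26 to 0.16, none past the p limit, and the other 4 lists had no peak there. The 5' end of RN7SL2 thus stood above input in the control and in 1 SLBP library and within 0.26 of input, on the log2 scale, in 1 RBFOX2 library.

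The 3' part of RN7SL2 was listed in the 5 libraries other than IgG and SLBP replicate 1. Those peaks began at nt 154 to 215 and ended at nt 209 to 275, and all were below input. The mean log2 fold over them was −4.17 and −2.91 in RBFOX2 replicates 1 and 2 and −2.04, −4.36 and −4.25 in SLBP replicates 2, 3 and 4. No nucleotide of RN7SL2 was covered in all 7 lists, so its libraries are not compared. On RN7SL1 the corresponding 5' end was below input where it was listed, at −2.22 and −2.07 in IgG (nt 3 to 40) and −3.81 in RBFOX2 replicate 1 (nt 23 to 35). Ends of opposite sign on the 2 copies were thus listed in the same IgG library, with the uncertainty about read assignment stated above.

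7SK RNA was listed in 2 blocks. The 3' block began at nt 248 or 249 in all 7 lists and ended at nt 318 to 330. Over its 70 nt shared by all lists, nt 249 to 318, the log2 fold was −2.10 and −3.20 in RBFOX2 replicates 1 and 2. It was −1.25, −1.17, −0.81 and −0.73 in SLBP replicates 1 to 4 and −1.07 in IgG, inside the SLBP range. The SLBP libraries differed little here, with a mean of −0.99 ± 0.26 (SD, n = 4) against −2.65 ± 0.78 (SD, n = 2) for RBFOX2. RN7SK was also the only RNA of the group on which both 40 U SLBP libraries lay below both 5 U libraries. The share of other stretches with this order was not counted, and 2 against 2 libraries cannot give an exact permutation p under 0.333. The mean gap was 0.44 on this stretch and 0.09 over all covered nucleotides. By the highest peak of each library the 40 U libraries were instead the higher, by 0.84 on average.

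The 5' block of 7SK lay within nt 72 to 118 and was listed in 5 libraries, and neither of the 5 U SLBP libraries had it. Its mean log2 fold was −1.29 and −2.36 in RBFOX2 replicates 1 and 2, 0.58 and −0.30 in SLBP replicates 1 and 2 and −0.30 in IgG. The 0.58 of SLBP replicate 1 (nt 80 to 105, −log10 p of 17.3) was the one RN7SK peak above input. In that list 81.4% of all peaks had a higher fold.

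RMRP, the RNA of RNase MRP, lay on both sides of input in the SLBP libraries and was lowest in the RBFOX2 libraries. A block that began at nt 57 to 61 and ended at nt 112 to 120 was present in all 7 lists. Over the 51 nt of it shared by all lists the log2 fold was −2.27 and −2.99 in RBFOX2 replicates 1 and 2. It was 0.68, 0.12, −0.85 and −0.24 in SLBP replicates 1 to 4 and −0.67 in IgG, inside the SLBP range. The mean fold was thus over 0 in both 40 U SLBP libraries and under 0 in both 5 U libraries, a mean difference of 0.95, and the block of SLBP replicate 2 (−log10 p of 4.05) missed the p limit. With each list's median fold subtracted from the mean over all covered nucleotides, the 40 U and 5 U libraries overlapped. Those nucleotides differ between libraries, and the subtraction was not made over the 51 shared nt.

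In SLBP replicate 1 both RMRP pieces passed the above-input limits, with log2 folds of 0.61 and 0.71 and −log10 p at the ceiling. These are 1.53- and 1.64-fold, so the ceiling p-value went with a small fold. In SLBP replicate 2 a 9-nt piece at nt 227 to 235 passed, with 0.56 and a −log10 p of 22.6. Peaks in this 3' part, nt 172 to 249, were listed in SLBP replicates 2, 3 and 4 and in none of the other 4 libraries. At the 5' end, nt 4 to 40, SLBP replicate 2 and IgG alone had peaks, all below input.

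RPPH1, the RNA of RNase P, held the most peaks of the group, 106 of the 227, and was the most widely covered, over 53.1% to 75.4% of its length. The SLBP lists covered 242, 196, 257 and 255 nt of it, more than the 194 and 181 nt of RBFOX2 replicates 1 and 2 and the 190 nt of IgG. A peak began at nt 1 or 2 in every list. The mean log2 fold over the 145 nt shared by all lists was −3.85 and −4.12 in RBFOX2 replicates 1 and 2. It was 0.69, −0.56, −1.21 and −0.65 in SLBP replicates 1 to 4 and −1.77 in IgG.

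The groups did not overlap: both RBFOX2 libraries were lowest, IgG lay between, and all 4 SLBP libraries were highest. The 40 U SLBP libraries exceeded the 5 U libraries by 1.00 on average, and with the list medians subtracted from the mean over covered nucleotides they overlapped. In linear terms the mean authors' fold over the shared RPPH1 nucleotides was 14.4 and 17.4 times below input in RBFOX2 replicates 1 and 2. In IgG it was 3.42 times below input. In SLBP replicate 1, 11 of 19 RPPH1 peaks passed the above-input limits, with log2 folds of 0.32 to 1.37. The highest covered nt 1 to 31, where SLBP replicate 2 had −0.08 and −0.11, replicate 3 −1.02, replicate 4 −0.58 and IgG −1.46. All RPPH1 peaks of the other 6 lists were below input.

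**Figure D3:**
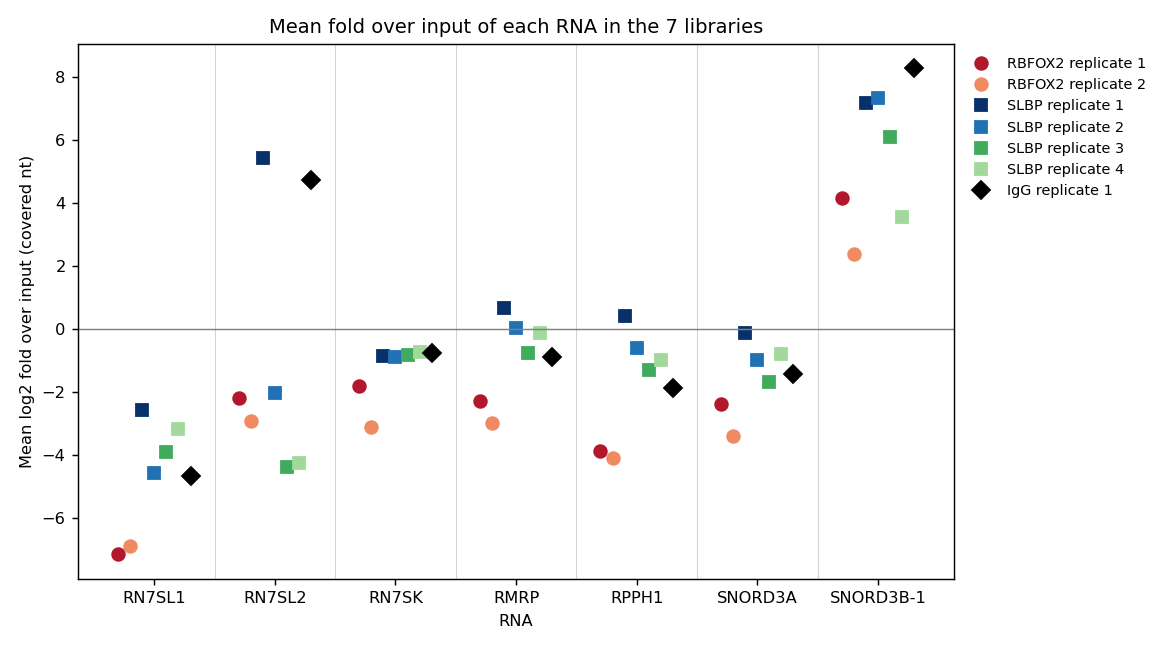
Mean authors' log2 fold over input (vertical axis) over the nucleotides covered by peaks, for each RNA (horizontal axis) in each library; circles are RBFOX2, squares SLBP and the diamond IgG, 1 point per library. RBFOX2 points lie below all SLBP points for RN7SL1, RN7SK, RMRP, RPPH1 and SNORD3A; the covered nucleotides differ between libraries, most of all on RN7SL2.

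A comparison over the same nucleotides was possible for 6 RNAs, all but RN7SL2. On 5 of the 6 (RN7SL1, RN7SK, RMRP, RPPH1 and SNORD3A) both RBFOX2 libraries lay below all 4 SLBP libraries, by 1.66 to 3.94 between the group means. SNORD3B-1 was the exception, with overlapping groups at 4.91 ± 1.97 (SD, n = 2) for RBFOX2 and 6.32 ± 2.02 (SD, n = 4) for SLBP. On the other 5 RNAs the order also held with the list medians subtracted from the mean over covered nucleotides. The nearest RBFOX2 and SLBP libraries were then only 0.15 apart on RN7SK. The order was common elsewhere: of 1522 stretches of nucleotides with a peak in all 7 lists, both RBFOX2 lists were below all 4 SLBP lists in 68.3%. IgG lay above both RBFOX2 libraries on 6 of 6 RNAs, and on 90.2% of the 1522 stretches. Against SLBP, IgG was lower than all 4 libraries on RN7SL1 and RPPH1, inside their range on RN7SK, RMRP and SNORD3A and higher on SNORD3B-1. With the list median subtracted from the mean over covered nucleotides, IgG was inside the range on RN7SL1 and RN7SK and below it on RMRP, RPPH1 and SNORD3A. Those nucleotides are not the shared ones, over which the medians were not subtracted. On RN7SL1 the IgG mean takes in its 5' peaks (−2.09 over 38 nt), where no SLBP list had a peak. How many of the 1522 stretches had each of these IgG orders against SLBP was not counted, so the orders are not read as particular to these RNAs. Neither of the orders against RBFOX2 is therefore particular to these RNAs, and 2 against 4 libraries cannot give an exact permutation p under 0.133. The scaling between lists is unknown, and the median fold of these stretches was −1.01 and −1.60 in RBFOX2 replicates 1 and 2, −0.35 to 0.24 in the SLBP lists and 0.06 in IgG.

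Set against the 1522 stretches, SNORD3B-1 and RN7SL1 stood at the ends. The RNAs were chosen with these folds known, so the ranks are a description and no support for the choice. Ranked by the lowest of its 7 folds, which was 3.52, the SNORD3B-1 stretch (nt 185 to 205) came 2nd of 1522. It was 1 of only 2 stretches (0.131%) with a log2 fold of at least 3 in all 7 lists, and 58 (3.81%) had a fold over 0 in all of them. No p limit was set for the stretches, and the SNORD3B-1 peak of SLBP replicate 4 had a −log10 p of 3.37. In IgG and RBFOX2 replicate 1 no stretch had a higher fold, and in SLBP replicate 4 it was exceeded by 33. The RN7SL1 stretch was the lowest of the 1522 in both RBFOX2 lists and in IgG. In SLBP replicates 1 to 4, 26, 1, 4 and 15 stretches were lower.

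The longest shared stretches of the other 4 RNAs lay within the range of the rest. The RN7SK stretch was above 12.9% to 31.2% of the 1522 stretches across the 7 lists, and the SNORD3A stretch above 9.46% to 43.8%. That of RMRP was above 14.1% to 69.2% of them and that of RPPH1 above 2.69% to 79.8%, and for RMRP, RPPH1 and SNORD3A the highest of these shares was that of SLBP replicate 1.

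Within an antibody the folds on the 7 RNAs varied by about 1 log2 unit per nucleotide. RBFOX2 replicates 1 and 2 shared 542 covered nucleotides, with a mean absolute difference of 0.94. The 6 pairs of SLBP libraries differed by 0.63 to 1.49, and the 4 pairs of IgG with an SLBP library by 0.89 to 1.64, a range that overlaps that between SLBP replicates. IgG and RBFOX2 differed by 1.77 and 2.17, and the 8 pairs of RBFOX2 with SLBP by 2.01 to 3.80. Every pair of RBFOX2 with another antibody thus differed by more than any pair within an antibody or of IgG with SLBP. RBFOX2 was the lower on average in all of those pairs. Its lists were also low over the 1522 stretches, with medians of −1.01 and −1.60, so the difference is not particular to these RNAs. Each pair was compared over its own shared nucleotides, from 426 to 621.

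The ends of the order of the RNAs were largely shared between libraries. By the mean over covered nucleotides SNORD3B-1 came first in all 7 lists. RN7SL1 came last in 5 of them, and RN7SL2 came last in SLBP replicates 3 and 4. RMRP came 2nd in SLBP replicates 2, 3 and 4.

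No list had a same-strand peak within 1 kb of any of the 7 windows, and none had a peak on the opposite strand over them (0 in all 7 lists). The flanks held 35 opposite-strand peaks over the 7 lists, 25 of them beside RN7SL1. None of the 35 was above input by both limits, and their log2 folds ran from −2.98 to 2.19. All 227 peaks ended within their windows.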

How the data were processed

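The 7 peak lists were used as deposited, 1 per library, with intervals on hg19 and strand. The submitters' processing notes name cutadapt, STAR, GATK, Picard and SAMtools, and neither they nor the labels name the peak caller or how reads matching several places were handled. The deposited columns carry no header and were read, from their values and the naming of the lists, as the authors' −log10 p (ceiling 400) and log2 fold of immunoprecipitation over paired input. Same-strand peaks of a list never overlapped (0 pairs), though many touched.

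Peaks were assigned to RNAs by an overlap of at least 1 nt, and each nucleotide took the log2 fold of its peak (Python 3.11.15, pandas 2.3.3); this step was tested on simulated data. The members, lists and limits were chosen with earlier results of these data known. All 7 RNAs are named, each with its highest peak of −log10 p at least 5, else its highest peak. No count model or test was applied. The 7 inputs entered only through the authors' folds, and 10 RBFOX2 samples of an RNase I series were not analysed here. Library depth is unknown. Alternatives were other limits, overlaps, windows and summaries, and each replicate left out in turn. Other structured noncoding RNAs were not analysed here.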

Additional observations from a re-analysis of the deposited data

How the results depend on the processing

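The number of RNAs above input in all 7 libraries was 0; it was 1 (SNORD3B-1) with −log10 p of at least 3, with no p limit (added after seeing the data), or without SLBP replicate 4, and 0 without any other RBFOX2 or SLBP replicate. The number above input in at least 1 library of each antibody was 1, and 2 with no p limit, where RN7SL2 joined; it was 1 whichever replicate was left out. Enriched peaks on the RNAs averaged 1 per RBFOX2 library, 1.25 ± 1.26 (SD, n = 4) per SLBP library and 4 in IgG. With the stricter limits (−log10 p of 10 and log2 fold of 5) they were 0.5 in RBFOX2 and 2 in IgG. Counting touching peaks once gave 2 in IgG. Counting only RN7SL1 and SNORD3A of the 7SL and U3 copies gave 0 for all 3 antibodies. Leaving out a replicate gave 1 for RBFOX2 and 0.67 to 1.67 for SLBP, the lowest without SLBP replicate 1. The mean fold of RMRP over the SLBP libraries, −0.04, changed sign to 0.20 with the highest peak in each library and to 0.20 without SLBP replicate 3, and it ranged from −0.28 (without replicate 1) to 0.20 as single replicates were left out. Of the other mean folds per RNA and antibody none changed sign under the alternatives run, but their sizes depended on the summary. Among the largest changes were those with uncovered nucleotides taken as 0. The RN7SL1 mean in RBFOX2 was then −1.58 instead of −7.01, and the SNORD3B-1 mean in IgG 0.52 instead of 8.29. No paired analysis was possible because the results are descriptions with no fit that could hold a replicate block, and the labels name no culture or batch shared by equal replicate numbers. Read depth is unknown for every fold.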
